A study of Mus with 6 samples.

Results

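Small leucine-rich proteoglycans are a family of secreted matrix proteins, and their genes were examined in RNA-seq data from mouse chondrocytes with and without Sirt6. A set of 9 genes of the family was looked for by genomic position, and 3 of them, Dcn, Lum and Bgn, had a row among the 11659 genes of the deposited count table. The other 6, Fmod, Prelp, Podn, Epyc, Kera and Chad, were not analysed here. Genes were read only from ranges of gene identifiers in which the counts stand beside their own label, since in other ranges they can be displaced by a few rows, as checked below. Chondrocytes came from knee cartilage of 12-week-old C57BL/6J mice, and the samples fall into 3 labelled wild type (WT) and 3 labelled Sirt6 cKO, a conditional knockout. Sirt6 cKO mice are Sirt6 flox/flox, and Sirt6 is removed by Col2a1-CreERT2, a tamoxifen-activated recombinase driven by the type II collagen promoter, so the deletion is limited to cells in which that promoter was active. The WT label does not say whether these mice carried the floxed allele, and tamoxifen is stated for other mice of the study but not for the sequenced samples. Mouse chondrocytes of the study were released from microdissected articular cartilage with trypsin and collagenase and grown to first passage, so these are cultured cells rather than fresh tissue. The study describes the data as chondrocytes of 3 control and 3 Sirt6 knockout mice, while the labels do not tie a sample to a mouse. The p-values below measure the spread between these samples.

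Small leucine-rich proteoglycans share a curved core of leucine-rich repeats that binds to collagen fibrils and helps to set their diameter and spacing. Decorin (Dcn) and biglycan (Bgn) are the closest relatives in the family and carry chondroitin or dermatan sulfate chains, whereas lumican (Lum) belongs to another class and can carry keratan sulfate. Decorin also binds transforming growth factor beta and several receptor tyrosine kinases, and biglycan can act as a ligand of Toll-like receptors. In cartilage they surround chondrocytes and the collagen network, and in skin, tendon and synovium decorin and lumican are abundant products of fibroblasts.

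The total count per sample ranged from 25726958 to 30156935. Sirt6 itself had 10273, 9963 and 10943 raw counts in the WT samples and 1056, 862 and 660 in the Sirt6 cKO samples, which fits the genotype labels. WT replicate 1 stood apart from its group, with correlations of log2 counts across genes of 0.972 and 0.974 to the other WT samples, against 0.996 between those 2. It also had the lowest counts of Dcn, Lum and Ecm2, so values without it are given with these genes. Around each member the labels were checked by exon length, because longer transcripts collect more reads. Over the protein-coding rows within 300 rows of Dcn, Lum and Bgn, Spearman's rho between exon length and the count of the same row was 0.21, 0.252 and 0.221, and the largest rho with a count up to 8 rows away was 0.113, 0.051 and 0.088. Across the rows around each of the 3 genes, counts thus tracked exon length most closely on their own row. This check describes the surrounding rows and cannot place the count of a single row. Around Omd, a family gene whose row lies outside the ranges used, 46.1% of the protein-coding rows were in them. There the same row also gave the largest rho, 0.161 against 0.121. Over all 6305 protein-coding rows of the ranges used, exon length and a row's own count gave a rho of 0.263, against at most 0.026 for another row, whereas over the 3218 protein-coding rows outside them its own count gave 0.057 and the count 3 rows away gave 0.178. With non-coding rows included and only the same row compared, rho was 0.276 in the ranges and 0.359 outside them, so that comparison does not separate the ranges in this way.

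Dcn and Lum were higher in Sirt6 cKO than in WT chondrocytes, by about 10.3-fold and 94.5-fold in the fitted model, while Bgn rose by 1.92-fold and stayed just under the fold threshold. A gene was called where edgeR's quasi-likelihood test gave an adjusted p below 0.05 and the fold change was over 2 or under 0.5. At that threshold 2 of the 3 members were higher and 0 were lower, where 8.72% of the 11246 tested genes were called higher. With the adjusted p alone 3 of 3 were higher, as were 22.5% of tested genes. None of the 3 was lower at an unadjusted p under 0.05 or with DESeq2, with counts of 0 and 0. All 3 members passed the filter on low counts. In all 3 the Sirt6 cKO samples lay apart from the WT samples, as they did for 60.9% of all tested genes. Lum, with 0, 4 and 4 WT reads, passed the filter only through its Sirt6 cKO samples. A gene that passes in this way can hardly come out as lower or overlapping, so Lum adds little to these counts. Because these are bulk samples, a change in the RNA of each cell cannot be told apart from a change in the number of cells that make it.

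Dcn (ENSMUSG00000019929, GRCm38 chromosome 10 from 97479500 to 97518162, plus strand, 9 separate exons with a summed length of 2084 bases) encodes decorin. Its raw counts were 2068, 4455 and 3714 in WT replicates 1, 2 and 3, and 36771, 37758 and 35254 in Sirt6 cKO replicates 1, 2 and 3. The Sirt6 cKO samples were close to each other and all far above the highest WT sample, whereas WT replicate 1 held fewer than the other WT samples. After TMM normalization, which corrects for library size and composition, Dcn averaged 3451 ± 939 (SD, n = 3) for WT against 35554 ± 1117 (SD, n = 3) in Sirt6 cKO chondrocytes. The fitted log2 fold change was 3.36, standard error 0.21 (edgeR, adjusted p = 1.07e-05), and 89 of the tested genes had a larger value. Without WT replicate 1 it was 3.17. Scaled by exon length, the level of Dcn was 57.5 ± 15.7 RPKM (SD, n = 3), reads per kilobase and per 1e6 reads, for WT against 593 ± 18.6 RPKM (SD, n = 3) in Sirt6 cKO samples. Among the 6313 protein-coding genes in the identifier ranges used, Dcn ranked 1086, 446 and 602 by RPKM in the WT samples and 16, 16 and 13 in the Sirt6 cKO samples. Its rank was thus higher in every Sirt6 cKO sample than in any WT sample.

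Lum (ENSMUSG00000036446, chromosome 10 from 97565501 to 97572703, plus strand, 3 separate exons with a summed length of 2075 bases) encodes lumican. WT replicates 1, 2 and 3 gave 0, 4 and 4 reads, and Sirt6 cKO replicates 1, 2 and 3 gave 257, 249 and 326. The transcript was therefore near the limit of detection in WT chondrocytes and present in every Sirt6 cKO sample. For the WT sample without a read, a count of 0 allows a share of up to 1.17e-05% of all counts. After normalization WT samples averaged 2.57 ± 2.23 (SD, n = 3) and Sirt6 cKO samples 270 ± 41.7 (SD, n = 3). The fitted log2 fold change was 6.56, standard error 0.45 (edgeR, adjusted p = 1.77e-05), and only 2 tested genes had a larger fitted value. With so few WT reads the fitted size depends on the small count that the model adds. The 832 Sirt6 cKO reads against 8 WT reads, scaled to library size, made a ratio of 98.1 with an exact 95% interval of 49.5 to 228, which covers counting error only. Without WT replicate 1 the log2 fold change was 6.08.
In absolute terms Lum stayed a scarce transcript. Its level in Sirt6 cKO samples was 4.51 ± 0.697 RPKM (SD, n = 3), and it ranked between 4755 and 5192 among the 6313 genes there. Dcn and Lum were therefore both higher, but at levels far apart.

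Bgn (ENSMUSG00000031375, chromosome X from 73483602 to 73495933, plus strand, 7 separate exons with a summed length of 6099 bases) encodes biglycan. The WT samples held 44097, 51639 and 52323 raw counts and the Sirt6 cKO samples 97203, 104241 and 101443. Both groups were tight and did not overlap. Normalized counts averaged 50967 ± 1560 (SD, n = 3) in WT samples and 98071 ± 2052 (SD, n = 3) in Sirt6 cKO samples. The log2 fold change of 0.94 had a standard error of 0.11 (edgeR, adjusted p = 2.48e-04). This passed the test but not the fold threshold of 2, which it crossed only with upper-quartile scaling, at 1.02.
Unlike Lum, Bgn was already abundant in WT chondrocytes, with 290 ± 8.88 RPKM (SD, n = 3), against 559 ± 11.7 RPKM (SD, n = 3) in Sirt6 cKO samples. Its rank by RPKM was 66, 47 and 50 in the WT samples and 19, 18 and 14 in the Sirt6 cKO samples. The RPKM of Bgn rests on a summed exon length that counts every annotated exon, including any that most transcripts lack, and its level relative to Dcn and Lum depends on that length.

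In WT chondrocytes the order of levels per length was Bgn, Dcn and Lum, and neighbours in this order did not overlap in any sample. In Sirt6 cKO chondrocytes Dcn and Bgn were at 571 to 604 and 546 to 568 RPKM, ranges that lay side by side, and Lum remained far below.

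**Figure D1:**
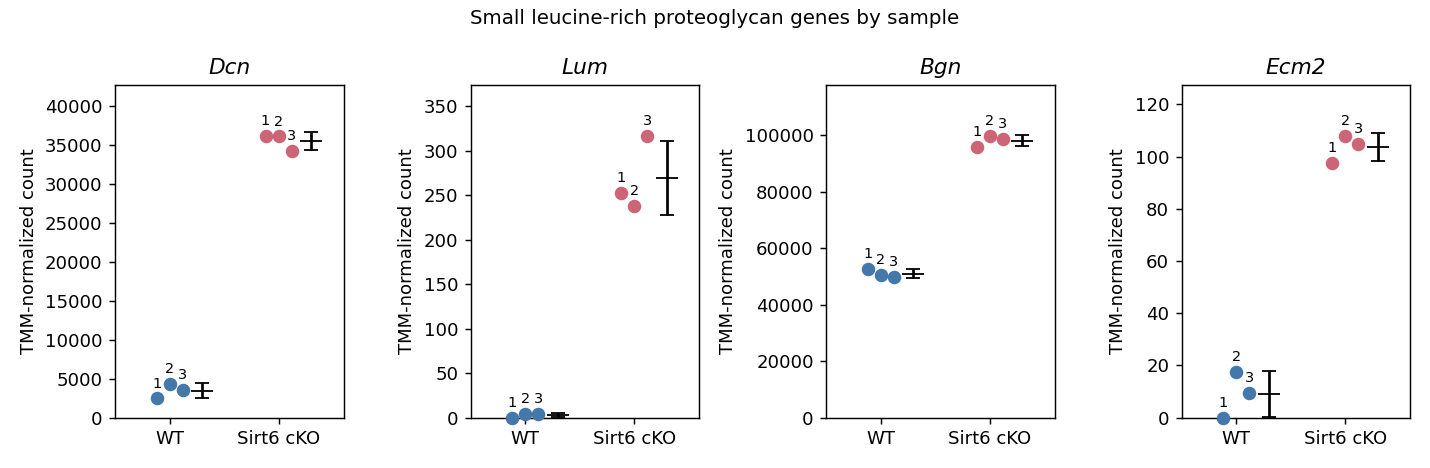
TMM-normalized counts (vertical axes, each from 0) of Dcn, Lum, Bgn and Ecm2 in the 3 WT and 3 Sirt6 cKO samples, with the replicate number above each point and the mean and SD beside each group. In each panel the Sirt6 cKO samples lie above the WT samples, with Dcn going from 2473 to 4347 up to 34265 to 36243 and Bgn from about 50967 to 98071 on average.

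A ratio of 2 genes within a sample does not depend on library scaling, and 3 such ratios were compared between the genotypes. The ratio of Dcn to Bgn, in counts per kilobase, was 0.137, 0.252 and 0.208 in the WT samples and 1.11, 1.06 and 1.02 in the Sirt6 cKO samples. On the exon lengths of the table, decorin transcripts were thus fewer than biglycan transcripts in WT and about as many in Sirt6 cKO chondrocytes. Those lengths are 2084 bases for Dcn and 6099 for Bgn, and a shorter length for Bgn would lower the ratio. In reads not scaled by length, Dcn stayed below Bgn in Sirt6 cKO samples, with 109783 against 302887 in sum. The difference in mean log2 ratio was 2.46, a 5.49-fold shift.
The ratio of Lum to Dcn, with 0.5 added to each count, was 2.43e-04, 0.00101 and 0.00122 in WT samples and 0.00703, 0.00664 and 0.0093 in Sirt6 cKO samples. Every Sirt6 cKO sample held more Lum per Dcn than any WT sample, with a difference of 3.50 in mean log2 ratio. This value rests in part on WT replicate 1, which had no Lum read, and was 2.77 without it.
The ratio of Dcn to Col1a1, which encodes the main chain of type I collagen, was 0.066, 0.121 and 0.095 in WT samples and 0.366, 0.386 and 0.396 in Sirt6 cKO samples. Every Sirt6 cKO sample held more Dcn per Col1a1 than any WT sample, with a difference of 2.07 in mean log2 ratio. For each of the 3 ratios the genotypes did not overlap, and an exact two-sided permutation test gave p = 0.1, also after adjustment over the 3 ratios, which is the smallest p that 3 samples against 3 allow. This test therefore cannot bring the ratios past a threshold of 0.05 with these sample numbers.

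**Figure D2:**
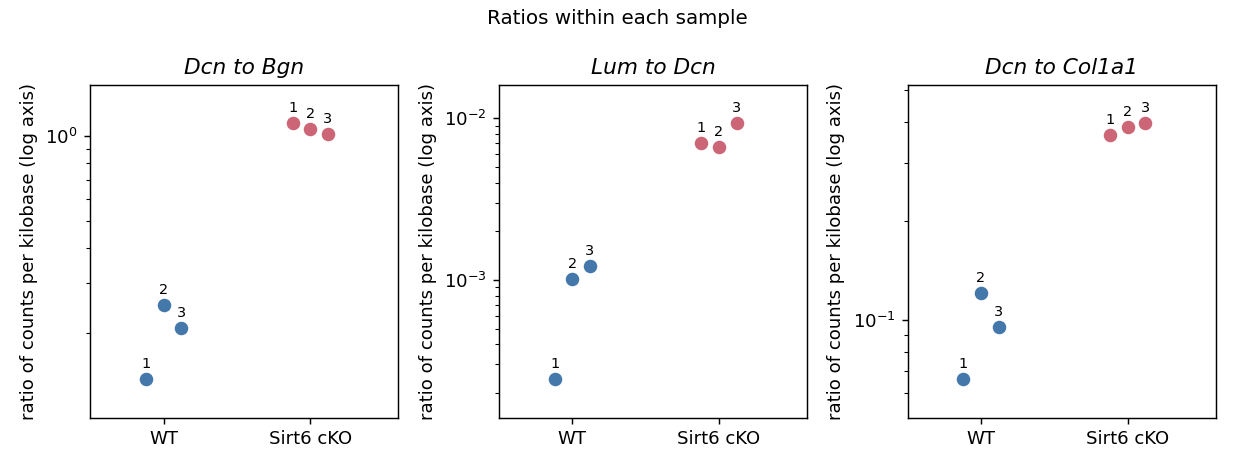
Ratios of counts per kilobase within each sample on log axes, for Dcn to Bgn, Lum to Dcn and Dcn to Col1a1, with replicate numbers above the points. The Sirt6 cKO samples lie above the WT samples in all 3 panels, and WT replicate 1 has the lowest ratio in each.

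A further 9 genes of the family were outside the set above. Of these, Ecm2 had a usable row. Ecm2 (ENSMUSG00000043631, chromosome 13 from 49504810 to 49532789) encodes an extracellular matrix protein with leucine-rich repeats related to decorin. Its raw counts were 0, 18 and 10 in the WT samples and 99, 113 and 108 in the Sirt6 cKO samples, so that it was scarce in WT and higher in every Sirt6 cKO sample. Its log2 fold change of 3.44 had a standard error of 0.62 (edgeR, adjusted p = 0.00238), and was 2.93 without WT replicate 1. Without WT replicate 2 it was 4.31, more than 1.5 times the fold of the fit with all samples. In group sums, 320 against 28 reads made a ratio of 10.8 with an exact 95% counting interval of 7.32 to 16.5. The gene lies inside Cenpp on the other strand, and the strand setting of the counts is not stated. Omd, which encodes osteomodulin, and Tsku, which encodes tsukushi, had rows outside the identifier ranges used. The values of those rows are not given for these genes. The other 6, Aspn, Ogn, Optc, Nyx, Podnl1 and Chadl, matched no row and were not analysed here.

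The genes that work with small leucine-rich proteoglycans were described by lists for the collagens they bind, the enzymes that make their sugar chains, their receptors and ligands, the proteases that cut them and other proteoglycans. Together with Ecm2 these lists held 52 tested genes, of which 15 were called higher and 3 lower in Sirt6 cKO chondrocytes. That is 28.8% and 5.77%, where 8.72% and 7.15% of all tested genes were called. Their median log2 fold change was 0.38, and that of all tested genes was 0.00. The lists were written with earlier results of these data known and were given no test of their own.

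Genes of collagens bound by these proteoglycans had the highest median of these partner lists with more than 1 gene. Of 8 genes with a row among 17 listed, 6 were higher and 0 were lower in edgeR's test, with 1 lower at an unadjusted p under 0.05 and 0 with DESeq2. Their median log2 fold change was 1.42. Col11a1, a chain of type XI collagen that starts thin cartilage fibrils, averaged 201 ± 27.3 (SD, n = 3) normalized counts for WT against 3232 ± 221 (SD, n = 3) in Sirt6 cKO samples, which is 16-fold (edgeR, adjusted p = 2.48e-06). Col1a2, the second chain of type I collagen, went from 191414 to 760047 on average, a log2 fold change of 1.99 (adjusted p = 1.00e-05, edgeR).
Type VI collagen forms the beaded filaments around chondrocytes, and biglycan and decorin bind to it. Its chains Col6a1 and Col6a2 rose by 3.46-fold and 2.82-fold, whereas Col6a3 changed by 0.43 on the log2 scale (edgeR, adjusted p = 0.022), under the fold threshold. Col9a3, a chain of the type IX collagen that decorates cartilage fibrils, did not pass at a log2 fold change of -0.53 (edgeR, adjusted p = 0.0756).

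Enzymes of chondroitin and dermatan sulfate, the chains of decorin and biglycan, had a lower median. Of 14 genes with a row among 27 listed, 2 were higher and 0 lower in edgeR's test, 1 was lower at an unadjusted p under 0.05 and 0 with DESeq2. At the adjusted p without a fold threshold 5 were higher and 1 lower, where 22.5% and 24.3% of all tested genes were. The median log2 fold change of the 14 genes was 0.38. Csgalnact1, which starts the chondroitin chain on the linker, averaged 2249 ± 476 (SD, n = 3) normalized counts for WT against 5247 ± 1136 (SD, n = 3) in Sirt6 cKO samples and rose by 1.22 on the log2 scale (edgeR, adjusted p = 0.0019). Chst15, a sulfotransferase of chondroitin sulfate, rose by 1.23 (edgeR, adjusted p = 7.11e-04). Dse, named here after its value was seen because it encodes the epimerase that turns chondroitin into dermatan sulfate, had a log2 fold change of 0.57 and an adjusted p of 0.0545 in the same edgeR test.
Of the enzymes of keratan sulfate, the chain of lumican, 4 of 12 listed genes had a row, B4galt1, Chst2, St3gal2 and St3gal3. At the threshold 0 were higher and 0 lower, also with DESeq2, and 1 higher and 0 lower had an unadjusted p under 0.05. The higher gene was the sialyltransferase gene St3gal3, which also passed at the adjusted p (0.62 on the log2 scale, edgeR, adjusted p = 0.012) but not the fold threshold. Their median log2 fold change was -0.02, and the summed level of the 4 genes, in counts scaled to library size (CPM), was 403 to 469 CPM in WT and 403 to 430 in Sirt6 cKO samples, ranges that overlapped.

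Among receptors and ligands of these proteoglycans, 11 of 27 listed genes had a row, with 3 higher and 2 lower and a median log2 fold change of 0.30. Pdgfra, a growth factor receptor of mesenchymal cells, rose from a mean normalized count of 8991 to 46558, by 2.37 on the log2 scale. Tlr2, a Toll-like receptor that binds biglycan, rose by 1.40 (adjusted p = 6.76e-05, edgeR). Lrp6, a Wnt co-receptor, rose by 1.13, but by 0.89, under the fold threshold, without WT replicate 1.
Met, the hepatocyte growth factor receptor that decorin binds and inhibits, was lower, at 4987 ± 1510 (SD, n = 3) normalized counts for WT against 1179 ± 73.4 (SD, n = 3) in Sirt6 cKO samples, a log2 fold change of -2.08 (edgeR, adjusted p = 1.98e-04). Ccn2, a matricellular growth factor that decorin binds, fell by 1.03 and was named here after its value was seen. Its log2 fold change missed the fold threshold without WT replicate 1 (-0.91), without Sirt6 cKO replicate 2 (-0.97), with upper-quartile factors (-0.96) and with library totals alone (-0.98). Tgfb1, the ligand that decorin is best known to bind, passed the test at -0.75 (edgeR, adjusted p = 0.0213) but did not reach the fold threshold.

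Of the proteases that cut small leucine-rich proteoglycans and their inhibitors, 5 of 17 listed genes had a row, with 1 higher and 1 lower and a median log2 fold change of 0.06. Mmp2, a gelatinase that can cleave decorin, went from 9074 ± 399 (SD, n = 3) to 40727 ± 2476 (SD, n = 3) normalized counts, a log2 fold change of 2.17 (adjusted p = 7.19e-06, edgeR). Timp1, an inhibitor of metalloproteinases, went from 3098 ± 489 (SD, n = 3) to 545 ± 129 (SD, n = 3), a log2 fold change of -2.51 (adjusted p = 4.02e-05, edgeR). Timp2 had a log2 fold change of 0.06 and did not pass. Of other proteoglycans and hyaluronan genes, 9 of 28 had a row, with 2 higher and 0 lower in edgeR's test, and 0 lower with DESeq2. The median log2 fold change of this list was -0.24. Where 24.3% of all tested genes were lower at the adjusted p alone, 3 of the 9 genes passed as lower there but not at the fold threshold. They were the cell-surface proteoglycans Gpc1 (-0.91), Sdc1 (-0.71) and Sdc4 (-0.44), named after their values were seen, and 3 were lower at an unadjusted p under 0.05. Agrn, the basement membrane proteoglycan agrin, rose by 1.27. Has3, a hyaluronan synthase, rose by 1.16, but did not reach the threshold without WT replicate 1 (0.93), WT replicate 3 (1.04, adjusted p = 0.0519 in edgeR) or Sirt6 cKO replicate 2 (0.95), nor when tested against a 1.5-fold change with glmTreat (adjusted p = 0.104).

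**Figure D3:**
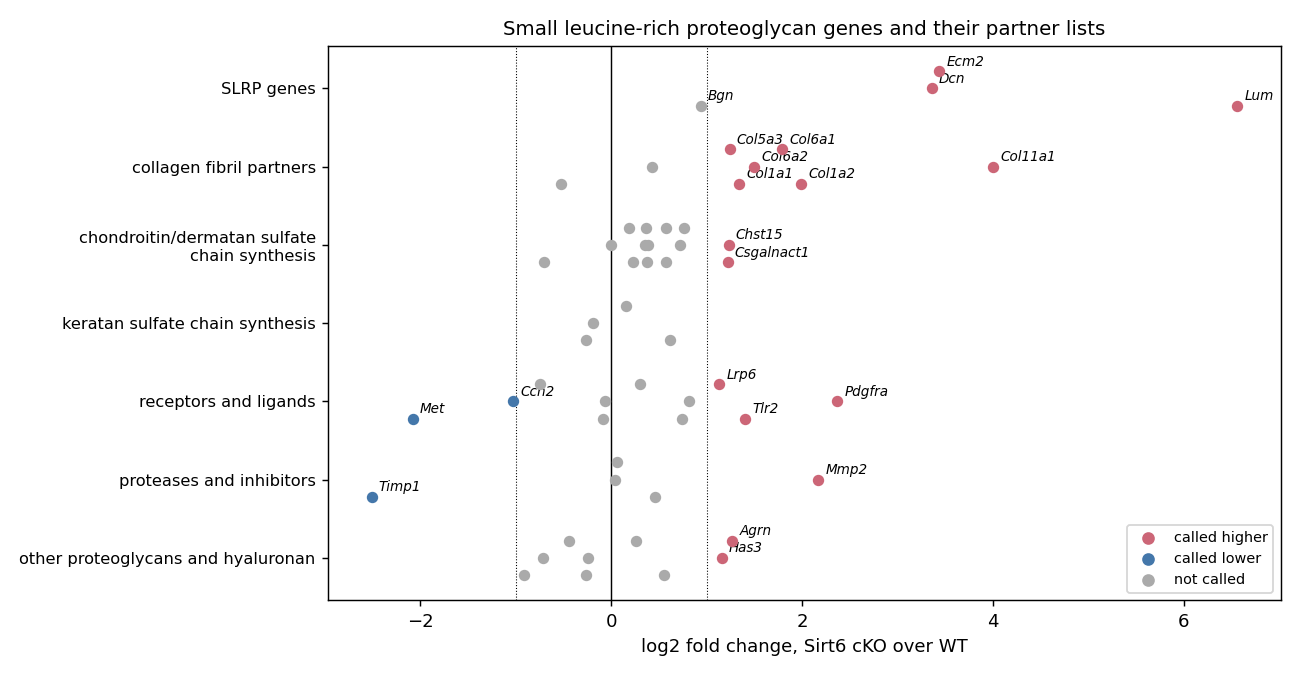
Log2 fold changes (Sirt6 cKO over WT, horizontal axis) of Dcn, Lum, Bgn and Ecm2 in the top line and of the genes of each partner list below, with 1 point a gene, vertical position without meaning within a line, and dotted lines at a fold change of 2 in either direction. Lum at 6.56 lies farthest right, followed by Col11a1, 16-fold higher, and the keratan sulfate list has 0 called genes.

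Dcn and Lum lie in a cluster of small leucine-rich proteoglycan genes on chromosome 10, with 47338 bases between the end of Dcn and the start of Lum, and in the RefSeq annotation of GRCm38 Kera and Epyc follow Lum. Within 2 Mb of the pair, 8 genes including Dcn and Lum had rows in the identifier ranges used, and 5 more had rows outside them and were left out. Of the 6 others, Btg1, an antiproliferative gene, was called higher, at 1.32 on the log2 scale (adjusted p = 7.80e-05, edgeR). Dusp6, a phosphatase of ERK, was called lower, at -1.60 on the log2 scale (adjusted p = 2.24e-04, edgeR). Atp2b1, a calcium pump, was at 0.97 (adjusted p = 0.0155, edgeR) and Poc1b at -0.43 (adjusted p = 0.0434, edgeR), both under the fold threshold. Eea1 (0.87) and Nudt4 (-0.20) did not pass. With the replicate number as a block Atp2b1 (1.05) and Eea1 (1.02) were called higher. Without WT replicate 2 both were also called, at 1.17 each, and Atp2b1 was called without WT replicate 3 (1.13) or Sirt6 cKO replicate 1 or 2 (1.02 each). Both directions therefore occurred around the pair, and the neighbours had smaller fold changes than Dcn and Lum.

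**Figure D4:**
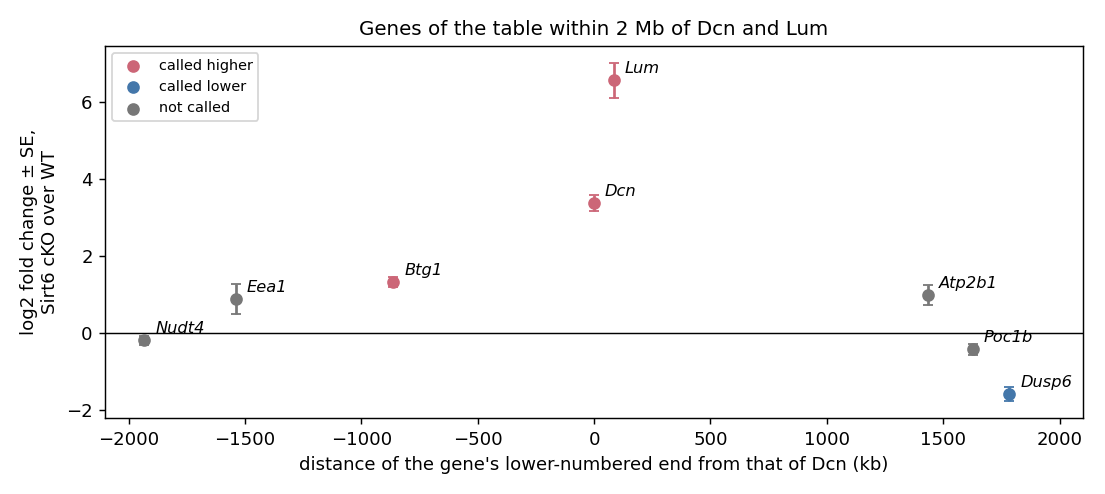
Log2 fold change with its standard error (Sirt6 cKO over WT, vertical axis) of the 8 genes within 2 Mb, against the distance in kb of each gene's lower-numbered end from that of Dcn. Dcn at 3.36 and Lum at 6.56 stand above their neighbours, which lie between -1.60 and 1.32.

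The genes whose profile was most like that of Dcn or Lum were found by the Euclidean distance between log2(CPM + 0.5) values over the 6 samples, each centred on its own mean. All profiles share the same 6 libraries and the genotype difference, and the distances are given as a description. Among 6050 candidates the nearest to Dcn were Aff3 (distance 0.36), Usp11 (0.42), Cdon (0.55), F3 (0.56) and Fbxl7 (0.57). Aff3, a nuclear factor, had 522, 826 and 705 raw counts in WT samples and 7360, 7938 and 7569 in Sirt6 cKO samples. F3 encodes tissue factor and Cdon a cell-surface receptor of Hedgehog signaling. The log2 fold changes of the 5 genes ran from 3.12 (Cdon) to 3.74 (Usp11).
Among 6376 candidates the nearest to Lum were Col11a1 (distance 0.46), Trp53inp2 (0.50), Pappa (0.57), Abi3bp (0.59) and Tacr2 (0.64). The added 0.5 CPM shrinks the change of a gene as scarce as Lum, so genes with smaller fitted fold changes came close to it. Tacr2, a tachykinin receptor gene also on chromosome 10, had 4, 4 and 18 raw counts in WT samples and 425, 400 and 489 in Sirt6 cKO samples, and its log2 fold change of 5.57 was 6.60 without WT replicate 3. Pappa encodes a protease of insulin-like growth factor binding proteins, and Abi3bp a matrix protein.

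**Figure D5:**
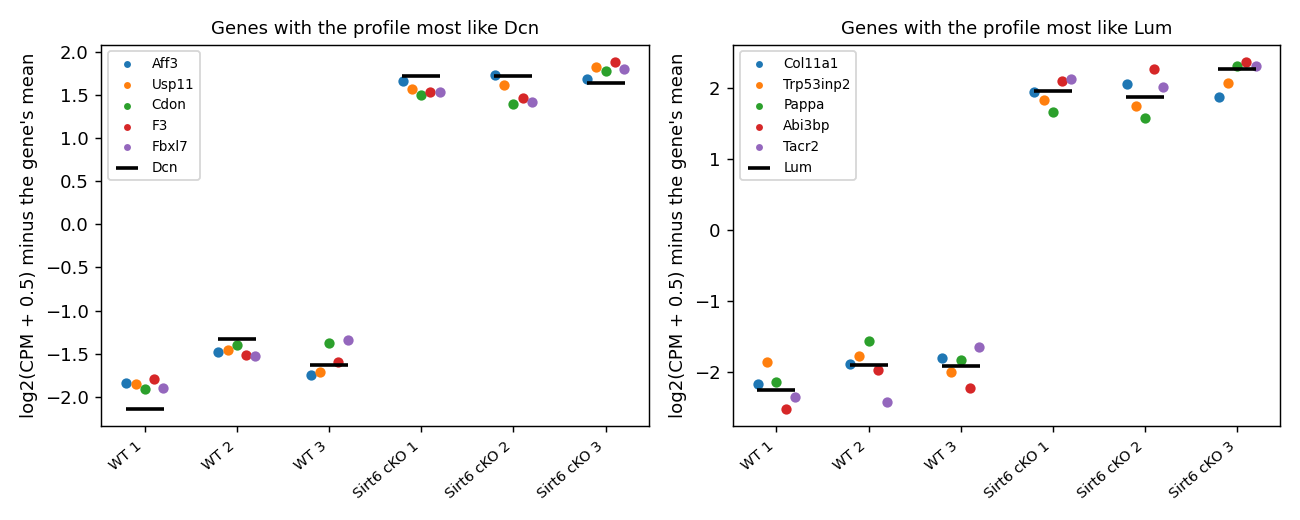
Centred log2(CPM + 0.5) values (vertical axis) in each of the 6 samples for Dcn (left) and Lum (right), drawn as black bars, and for the 5 genes nearest to each, drawn as colored points. In both panels the WT samples lie below 0 and the Sirt6 cKO samples above 0, and WT replicate 1 is the lowest sample of Dcn.

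Decorin and lumican are also products of fibroblasts, so markers of other cells were read beside them. Of 15 synovial fibroblast markers 5 had a row, of which 2 were higher and 0 lower in edgeR's test, with 1 lower at an unadjusted p under 0.05 and 0 with DESeq2. The higher genes were Pdgfra and Col1a1, which are also on the partner lists, and Col1a1 makes up most of the list's summed level of 4547 to 4642 CPM in WT and 11148 to 12753 in Sirt6 cKO samples. The median log2 fold change of the 5 genes was 0.09. Thy1 (0.09), Pdpn (-0.36) and Has1 (-0.26) did not pass, and no marker of this list was at 0 in any sample.
Of 18 chondrocyte markers 6 had a row, which were Sox9, Col9a3, Col11a1, Comp, Ucma and Col27a1, and Col2a1 and Acan were not analysed here. At the threshold 3 were higher, Col11a1, Comp and Ucma, and 0 lower, with 1 lower at an unadjusted p under 0.05 and 0 with DESeq2. In WT samples Comp had 15, 14 and 28 raw counts and Ucma 6, 2 and 6. In Sirt6 cKO samples Comp had 193, 322 and 182 and Ucma 319, 307 and 114. Ucma thus passed the filter on low counts only through the Sirt6 cKO samples. The median log2 fold change of the 6 genes was 2.23. Their summed level was 212 to 232 CPM in WT and 421 to 519 in Sirt6 cKO samples, most of it from Sox9. Sox9, the master regulator of chondrocytes, had between 4917 and 11059 raw counts in every sample. Sox9 (0.62) and Col27a1 (0.94) also passed as higher at the adjusted p, under the fold threshold, so that 5 of the 6 passed there, where 22.5% of all tested genes were higher. At the fold threshold the 3 of 6 chondrocyte and 2 of 5 synovial fibroblast markers stand beside 8.72% of all tested genes.
Of the tendon list only Scx had a row, with 14 to 24 raw counts in WT and 24 to 57 in Sirt6 cKO samples (adjusted p = 0.0786, edgeR). Of the osteoblast list Runx2 and Spp1 had rows, with a summed level of 713 to 904 CPM in WT and 1119 to 1169 in Sirt6 cKO samples. Of the mural cell list Acta2, Tagln, Cspg4 and Des had rows, with 787 to 1134 CPM in WT and 1188 to 1485 in Sirt6 cKO samples. The tendon, osteoblast and mural cell lists had 0 genes past the threshold in edgeR's test and 0 with DESeq2, and 1, 1 and 3 genes were higher at an unadjusted p under 0.05. Of these Spp1 (0.53), Acta2 (0.53), Cspg4 (0.55) and Des (0.96) also passed at the adjusted p and were higher by these log2 fold changes, under the fold threshold. Des crossed it without WT replicate 1 (1.02), without Sirt6 cKO replicate 3 (1.02), with upper-quartile factors (1.04) and with library totals alone (1.02), and Scx was called without WT replicate 1 (1.44, edgeR, adjusted p = 0.0335). Of the macrophage and leukocyte list Cd68 had a row, with 6 to 52 raw counts and overlapping groups. The endothelial, adipocyte, skeletal muscle and erythroid lists had 0 genes with a row and were not analysed here. The part of these other cell types in the higher counts of Dcn and Lum was not tested.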

How the data were processed

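RNA-seq was done on chondrocytes from 3 WT and 3 Sirt6 cKO samples, grouped by the genotype label. The authors deposited raw read counts per Ensembl gene, without normalization, beside exon positions and summed exon length. The submitters' processing notes name cutadapt, HISAT2 2.0.5, StringTie and hg19. The positions are those of mouse, and the counter and strand setting are not given in the sources used here. Kits and sequencers differ between labels and methods.

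A row took the name of the RefSeq gene (GRCm38.p6) whose span overlapped it by 0.5 or more of their union, which named 10609 of 11659 rows. For members, lists, neighbours and likeness 6621 rows were used, in identifier ranges taken from an earlier examination of these data and checked here by exon length. All counts were fitted with edgeR 4.0.16 (TMM, filterByExpr, glmQLFit and glmQLFTest, R 4.3.3), with Benjamini-Hochberg adjustment over 11246 tested genes. This filter removed 413 genes. Standard errors are the log2 fold change over the root of the F statistic. Alternatives used limma 3.58.1 and DESeq2 1.42.0. The fit was tested on simulated data. Normalized counts, CPM and RPKM were computed here from TMM library sizes.

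Members, family genes, neighbours and marker genes with a row were named. From each partner list, up to 4 called genes with the largest change and a mean of at least 50 normalized counts were named. Candidates for likeness had a mean of at least 100 normalized counts and 10 raw counts in every sample (Dcn), or a mean of at least 10 (Lum). Col6a3, Col9a3, Dse, Ccn2, Tgfb1, Timp2, Gpc1, Sdc1, Sdc4 and the keratan sulfate genes B4galt1, Chst2, St3gal2 and St3gal3 were named after their values were seen. Members and lists were chosen with earlier results of these data known. The deviations of same-numbered samples from their group means had correlations across genes of 0.332, 0.114 and 0.166. Differently numbered samples were not compared, so these values do not show a pairing. The replicate number, which comes from the sample titles, was also used as a block.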

Additional observations from a re-analysis of the deposited data

How the results depend on the processing

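The log2 fold changes of Dcn and Lum kept their direction and their side of the threshold in each of the 16 and 15 alternatives that gave a value, between 3.17 and 3.58 for Dcn and between 6.08 and 6.93 for Lum, with both ends from fits that left out 1 WT sample. Their adjusted p reached at most 2.72e-04 (Dcn) and 3.69e-04 (Lum). With the replicate block they were 3.40 and 6.59, and the block changed the calls of the neighbours Atp2b1 (1.05) and Eea1 (1.02), which were then called higher, and of no other gene fitted with it by name. Requiring at least 10 counts in every sample leaves out Lum by construction, and then 1 member was called higher instead of 2. Bgn lay between 0.93 and 1.02. It was called with upper-quartile factors and with glmTreat against a 1.5-fold change, which made 3 members higher, as did dropping the fold threshold. Without a fold threshold 24 partner genes were higher and 8 lower instead of 15 and 3, and 2530 and 2736 of all genes instead of 981 and 804. When each sample was left out in turn, 13 to 16 partner genes were higher and 2 to 3 lower. The difference in log2 ratio lay between 2.21 and 2.65 for Dcn to Bgn, 2.77 and 3.93 for Lum to Dcn and 1.83 and 2.27 for Dcn to Col1a1. Ecm2 had a log2 fold change of 4.35 with limma-voom. Atp2b1 was also called with upper-quartile factors (1.05), library totals alone (1.01) and limma-voom (1.05), Col27a1 with upper-quartile factors (1.02) and glmTreat, and Scx with edgeR's likelihood ratio test. Has1, which did not pass, lay between -0.91 and 0.17 when each sample was left out in turn, with the sign changed to 0.17 without WT replicate 3 and 0.05 without Sirt6 cKO replicate 1. The alternatives for the neighbours, the markers and the genes named after their values were seen were also chosen after seeing the data. Depth limits Lum and Ecm2 in WT samples, where at most 4 and 18 reads were counted.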
